A study of Mus musculus with 12 samples.

Results

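The intermediate filament genes of glia and neurons were followed across astrocytes, the spheres grown from them and 2 brain-derived cell preparations. The 8 genes, Gfap, Vim, Nes, Synm, Nefl, Nefm, Nefh and Ina, were chosen by name from a deposited table of 55862 genes, and each had exactly 1 row there. RNA was sequenced from 12 mouse samples, which formed 4 groups of 3. The labels give the strain as C57BL/6 throughout, and the methods give C57BL/6J for the mice behind both NPC groups. The negative control, ASTs, consisted of cortical astrocytes cultured from newborn mice as a monolayer with serum, before sphere culture (incubation day 0). A-iSCs were ASTs that had been kept on agarose for 5 days, where they aggregated into spheres. There were 2 positive controls, both cell suspensions taken straight from brain. P56-NPCs came from the subependymal zone of adults (postnatal day 56), and P0-NPCs came from the hippocampus of newborns (postnatal day 0). No sorting step is described for either NPC group, and no sample carried a transgene that the labels name. Nothing in the labels says whether the 3 samples of a group came from separate cultures or animals, so p-values measure the spread between these samples, which may be technical.

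Intermediate filaments are rope-like polymers of coiled-coil proteins that give a cell mechanical strength. Their make-up changes with cell identity. Neural progenitors and immature astrocytes are known for vimentin and nestin, mature and reactive astrocytes for glial fibrillary acidic protein (GFAP), and neurons for alpha-internexin and the neurofilament triplet, of which the light chain is the core subunit. Nestin and synemin do not form filaments alone and co-assemble with partners such as vimentin.

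On the mouse build GRCm38, Gfap lies on chromosome 11 from 102887336 to 102900912 and Vim on chromosome 2 from 13573927 to 13582826. Nes lies on chromosome 3 from 87971078 to 87980451 and Synm on chromosome 7 from 67730160 to 67759742. Nefl and Nefm are neighbours on chromosome 14, Nefl from 68083863 to 68089095 on the forward strand and Nefm from 68082590 to 68124846 on the reverse strand. Nefh lies on chromosome 11 from 4938754 to 4948064, and Ina on chromosome 19 from 47014698 to 47025327. All 8 are protein-coding genes whose positions were the same in GENCODE M21.

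The study stained for the protein of Gfap and lists RT-PCR primers for nestin, though its text gives no nestin result. The sequences upstream of Gfap and Nes are therefore shown, read 5′ to 3′ from RefSeq's start sites on GRCm38.p6. Each run is the 250 bases before the start, on chr11:102897201-102897450 (reverse strand) for Gfap and chr3:87970843-87971092 (forward strand) for Nes. The RefSeq starts of both genes lie inside the spans given above. The whole Gfap window and the end of the Nes window, from position 87971078, are thus inside those spans. Capitals mark the reverse complement of the GC box GGGCGG.
Gfap promoter: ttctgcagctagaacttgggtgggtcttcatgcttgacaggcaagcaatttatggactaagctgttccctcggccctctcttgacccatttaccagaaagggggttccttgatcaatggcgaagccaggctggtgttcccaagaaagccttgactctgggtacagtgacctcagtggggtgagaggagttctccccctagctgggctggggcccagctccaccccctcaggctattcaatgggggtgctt
Nes promoter: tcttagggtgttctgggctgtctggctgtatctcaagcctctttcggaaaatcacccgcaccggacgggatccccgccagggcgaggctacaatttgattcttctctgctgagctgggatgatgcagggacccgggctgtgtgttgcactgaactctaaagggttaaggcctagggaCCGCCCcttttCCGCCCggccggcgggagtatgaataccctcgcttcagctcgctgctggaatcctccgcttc
The Nes window held 2 GC boxes, at positions -73 to -68 and -62 to -57 relative to the start. A GC box on either strand was found in 32.7% of the 32851 promoter windows in the RefSeq table. The Gfap window held none of the 5 motifs searched on both strands. These were TTCNNNGAA (STAT, in 7.02% of windows), TGANTCA (AP-1, 6.75%), GGGCGG (GC box), the CCAAT box (33.8%) and TGACGTCA (CRE, 1.55%). These matches describe letters in a window and are not sites of binding. RefSeq windows were found for 5 of the 8 genes, not for Nefl, Nefm or Nefh.

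The RT-PCR primers that the study lists for nestin are shown because they tie its RNA assay to a place in the gene.
Nestin forward: ggcatccctgaattacccaa
Nestin reverse: agctcatgggcatctgtcaa
They delimit a product of 248 bases in the last exon of Nes, at chr3:87978663-87978910.

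Values are FPKM, fragments per gene length and library size, where the library sizes had already been scaled between samples by the authors, so levels can be set side by side between genes. Between 17077780 and 24452419 fragments per sample could be recovered from the values, and 3 fragments on a gene of 1 kilobase corresponded to 0.103 to 0.187 FPKM, which covers counting error only. Mitochondrial genes took 16.5 to 17.6% of the fragments in P56-NPCs and 2.94 to 7.03% in the other groups. A-iSCs replicate 3 and ASTs replicate 2 stood apart from the other samples of their groups for several of the 8 genes. The log2 fold changes of Gfap and Vim and the ratio of these 2 genes are given with and without the sample concerned. Their shares are also given without A-iSCs replicate 3, but not without ASTs replicate 2. Groups were compared 2 at a time with limma on log2(FPKM + 1), over the genes with a mean of at least 1 FPKM in either group. A gene under that level in 1 group was tested only if it reached it in the other, so the filter fixed its direction. Of the 8, this applied to Nefl in ASTs and A-iSCs, Ina in ASTs, Nefm in A-iSCs and Nefh outside P56-NPCs. A gene was called where its p, adjusted over all genes tested by the Benjamini-Hochberg method, was under 0.05. All log2 fold changes below are on the log2(FPKM + 1) scale, which understates the change of genes near or under 1 FPKM.

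**Figure D1:**
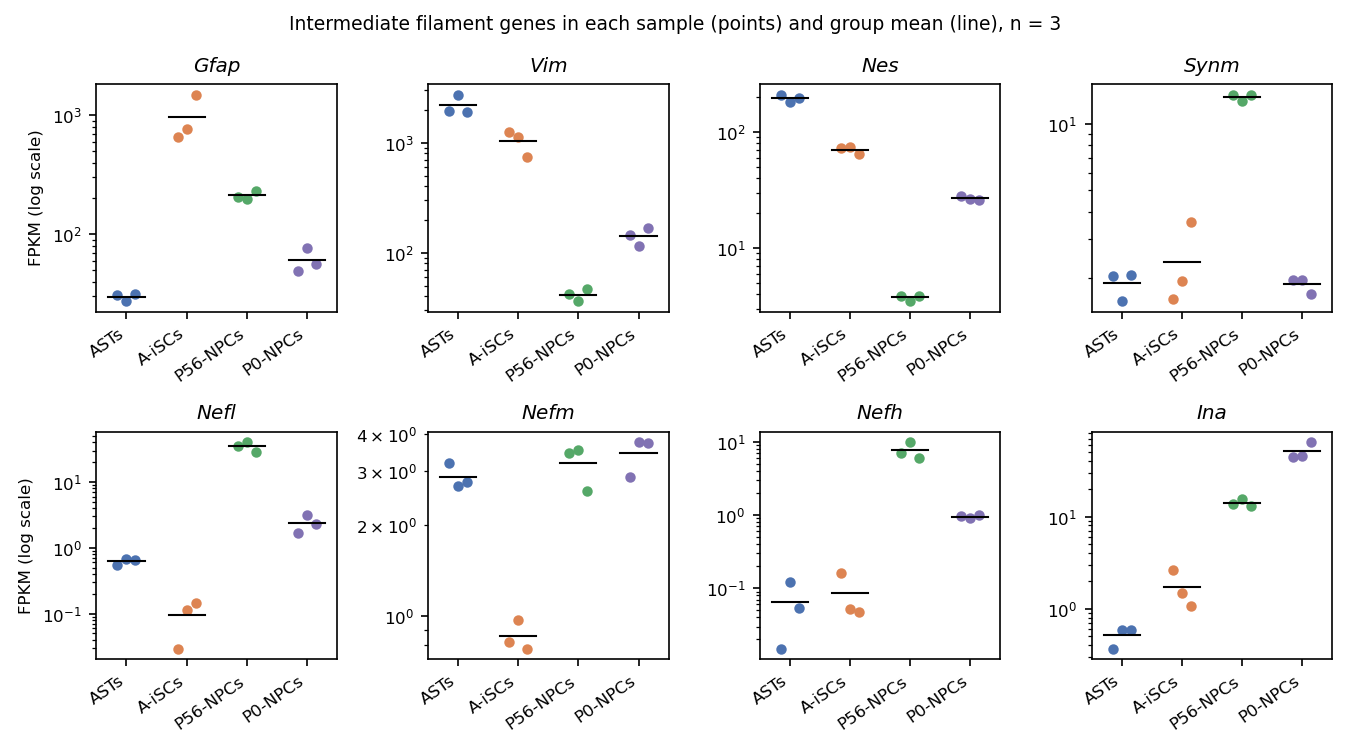
FPKM of each of the 8 genes on a log axis of its own, with 1 point per sample, grouped by the 4 kinds of cells (n = 3 each) and a line at the group mean. Vim and Nes descend from ASTs through A-iSCs and P0-NPCs to P56-NPCs, Gfap peaks in A-iSCs, and Synm, Nefl and Nefh peak in P56-NPCs.

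Gfap, the filament protein by which astrocytes are most often recognised, was highest in A-iSCs and lowest in ASTs. In the 3 ASTs samples it measured 31.1, 27.2 and 31.3 FPKM. The other groups had 658, 769 and 1483 FPKM in A-iSCs, 207, 198 and 228 FPKM in P56-NPCs, and 49.3, 77.0 and 55.6 FPKM in P0-NPCs. The 4 groups did not overlap, and A-iSCs replicate 3 was about double the other A-iSCs samples. The mean of A-iSCs was 32.5 times that of ASTs, with a log2 fold change of 4.88 (SE 0.30, adjusted p = 1.72e-05, limma), which was 4.53 without A-iSCs replicate 3. Gfap in A-iSCs was also above P56-NPCs, by 2.10 on the log2 scale (SE 0.29, adjusted p = 0.000709, limma), and above P0-NPCs by 3.91 (SE 0.32, adjusted p = 2.44e-05, limma). Without A-iSCs replicate 3 these differences were 1.75 and 3.56, both called. The smallest step in the order was from P0-NPCs down to ASTs, 0.97 (SE 0.16, adjusted p = 0.000758, limma). Without ASTs replicate 2, Gfap over ASTs was 4.82 in A-iSCs, 2.72 in P56-NPCs and 0.91 in P0-NPCs, all called. In these bulk samples, fewer cells of a type and less RNA per cell cannot be told apart.

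Vim, which encodes vimentin, had the highest mean of the 8 in every group except P56-NPCs. It measured 1926, 2724 and 1908 FPKM in ASTs, then 1243, 1131 and 741 in A-iSCs, 41.7, 36.0 and 46.6 FPKM in P56-NPCs, and 145, 114 and 168 FPKM in P0-NPCs. The groups did not overlap. The highest ASTs sample was replicate 2, and the lowest A-iSCs sample was replicate 3, the one in which Gfap was highest. Vim fell from ASTs to A-iSCs by 1.09 on the log2 scale (SE 0.28, adjusted p = 0.0128, limma). The difference was -0.86 without A-iSCs replicate 3 and -0.92 without ASTs replicate 2, still called in both cases. Without the filter on low genes it was not called (adjusted p = 0.109, limma). The distance to the brain-derived cells was far larger. Mean Vim in A-iSCs was 25.1 times that in P56-NPCs (log2 fold change 4.59, SE 0.21, adjusted p = 3.55e-06, limma) and 7.30 times that in P0-NPCs (2.84, SE 0.24, adjusted p = 2.98e-05, limma). Without A-iSCs replicate 3 these log2 fold changes were 4.81 and 3.07. Without ASTs replicate 2, Vim over ASTs was -5.51 in P56-NPCs and -3.76 in P0-NPCs, and all 4 of these differences were called.

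Nes, the gene of nestin and a classical marker of neural progenitors, followed the order of Vim and not that of the NPC groups. It measured 209, 183 and 195 FPKM in ASTs, then 72.2, 73.7 and 64.4 in A-iSCs, 27.9, 26.7 and 26.1 FPKM in P0-NPCs, and 3.91, 3.48 and 3.90 FPKM in P56-NPCs. Samples within a group lay close together and no groups overlapped. All 6 differences between groups were called. From ASTs to A-iSCs, Nes fell by 1.47 on the log2 scale (SE 0.13, adjusted p = 8.69e-05, limma). A-iSCs remained above P0-NPCs by 1.35 (SE 0.11, adjusted p = 2.27e-05, limma) and above P56-NPCs by 3.90 (SE 0.10, adjusted p = 3.15e-07, limma).

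Synm encodes synemin, a large partner of vimentin and desmin that links filaments to other structures, and it was high in P56-NPCs only among the 4 groups. It measured 13.6, 12.7 and 13.5 FPKM in P56-NPCs. In the other groups it measured 2.04, 1.57 and 2.07 FPKM in ASTs, then 1.60, 1.93 and 3.59 in A-iSCs, and 1.96, 1.96 and 1.69 FPKM in P0-NPCs. These 3 groups overlapped, and the highest of their 9 samples was again A-iSCs replicate 3. Mean Synm in P56-NPCs was 7.02 times that in ASTs (log2 fold change 2.31, SE 0.09, adjusted p = 5.32e-07, limma) and 5.59 times that in A-iSCs. The difference between A-iSCs and ASTs was 0.18 with a 95% confidence interval of -0.33 to 0.69 (adjusted p = 0.507, limma), and without A-iSCs replicate 3 it was -0.062. Of the exons of Synm, 5.37% overlap Gm45102 and 1.06% overlap Ttc23 on the opposite strand.

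Nefl encodes the light neurofilament chain, which the other chains need to form filaments, and it separated P56-NPCs from all other groups. It measured 35.6, 40.6 and 28.3 FPKM in P56-NPCs and 1.71, 3.20 and 2.32 FPKM in P0-NPCs. In ASTs it measured 0.547, 0.671 and 0.653 FPKM, and in A-iSCs 0.0294, 0.112 and 0.143 FPKM. The A-iSCs values rest on 2 to 13 fragments a sample, against 31 to 46 in ASTs. The 4 groups did not overlap. Nefl in P56-NPCs was above P0-NPCs by 3.40 on the log2 scale (SE 0.18, adjusted p = 1.74e-06, limma), and P0-NPCs were above ASTs by 1.05 (SE 0.16, adjusted p = 0.000404, limma). Nefl was under 1 FPKM in both ASTs and A-iSCs and so was not tested between them. Without the filter, the difference was -0.57 (SE 0.07, adjusted p = 0.00184, limma).

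Nefm, the medium chain, showed a different pattern, with A-iSCs alone below the rest. It measured 3.19, 2.70 and 2.77 FPKM in ASTs, then 0.824, 0.967 and 0.781 in A-iSCs, 3.46, 3.52 and 2.59 FPKM in P56-NPCs, and 2.87, 3.75 and 3.72 FPKM in P0-NPCs. A-iSCs did not overlap any other group, whereas the other 3 groups overlapped. Nefm was lower in A-iSCs than in ASTs by a log2 fold change of -1.06 (SE 0.11, adjusted p = 0.000200, limma), than in P56-NPCs by -1.17 (SE 0.12, adjusted p = 0.000175) and than in P0-NPCs by -1.26 (SE 0.12, adjusted p = 7.01e-05). Among the other 3 groups no difference was called. Those of P56-NPCs over ASTs and over P0-NPCs were 0.10 (95% confidence interval -0.16 to 0.37) and -0.09 (-0.38 to 0.20), and that of P0-NPCs over ASTs was 0.19 (-0.06 to 0.45). With scaling by library size alone, the last rose to 0.42 and that of P56-NPCs over P0-NPCs became -0.56, both called (adjusted p = 0.00906 and 0.00210, limma). Without P0-NPCs replicate 1, the difference of P0-NPCs over ASTs was 0.29 and was called (adjusted p = 0.0429, limma).

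The first exon of Nefl and the last exon of a Nefm transcript overlap on opposite strands at chr14:68083863-68084970. The shared 1108 bases are 32.8% of the exonic bases of Nefl and 19.2% of those of Nefm. The sources used here do not state that the counting used strand, and without strand a fragment from this stretch cannot be assigned to either gene, so the levels of both are uncertain to that extent.

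Nefh encodes the heavy chain, the last of the triplet to appear as axons mature, and like Nefl it was highest in P56-NPCs. It measured 7.05, 9.98 and 6.08 FPKM in P56-NPCs and 0.963, 0.920 and 0.991 FPKM in P0-NPCs. In ASTs it measured 0.0149, 0.123 and 0.0539 FPKM and in A-iSCs 0.161, 0.0527 and 0.0467 FPKM, from 1 to 13 fragments a sample. The values of ASTs and A-iSCs overlapped, and both groups lay below all NPC samples. Nefh in P56-NPCs was above P0-NPCs by 2.13 on the log2 scale (SE 0.15, adjusted p = 8.03e-06, limma) and above ASTs by 3.01 (SE 0.16, adjusted p = 2.45e-06, limma), and A-iSCs over P56-NPCs gave -2.98 (SE 0.17, adjusted p = 8.85e-06, limma). Between P0-NPCs and either ASTs or A-iSCs it was not tested, since its mean was under 1 FPKM in all of them. Without the filter, Nefh was higher in P0-NPCs than in ASTs by 0.88 (adjusted p = 9.83e-05, limma), and A-iSCs over P0-NPCs gave -0.85 (adjusted p = 0.000406, limma).

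Ina encodes alpha-internexin, the neuronal filament protein that precedes the neurofilament triplet in development, and it was the neuronal gene that marked P0-NPCs. It measured 44.0, 44.9 and 64.4 FPKM in P0-NPCs, 13.9, 15.6 and 13.1 FPKM in P56-NPCs, 2.62, 1.49 and 1.07 FPKM in A-iSCs, and 0.368, 0.594 and 0.582 FPKM in ASTs. The groups did not overlap, and each step of this order was called. Ina was lower in P56-NPCs than in P0-NPCs by a log2 fold change of -1.76 (SE 0.15, adjusted p = 1.83e-05, limma). In A-iSCs it rose over ASTs by 0.81 (SE 0.21, adjusted p = 0.0139, limma), which was 0.59 without A-iSCs replicate 1, the highest of the 3. With a pseudocount of 0.1 in place of 1 the same difference was 1.51. A stretch of 456 bases, 14.1% of the exons of Ina, overlaps Nt5c2 on the opposite strand.

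Counted over the 8 genes, A-iSCs against ASTs had 2 higher (Gfap and Ina), 3 lower (Vim, Nes and Nefm), 1 not called (Synm) and 2 not tested, in a comparison in which 54.8% of all 14087 genes tested were called (25.2% higher and 29.6% lower). Against P56-NPCs, A-iSCs differed in all 8 genes, with Gfap, Vim and Nes higher and the other 5 lower, where 61% of all genes tested were called (30.1% higher and 30.9% lower). Against P0-NPCs, A-iSCs had 3 higher and 3 lower of 7 tested (65.1% of all genes called, 31.5% higher and 33.6% lower). For P56-NPCs over ASTs, 5 of 8 were higher and 2 lower (78.9% called, 39.1% higher and 39.8% lower), and for P0-NPCs over ASTs 3 of 7 were higher and 2 lower (79% called, 38.1% higher and 40.9% lower). P56-NPCs against P0-NPCs had 4 higher and 3 lower of 8 (78.8% called, 39.7% higher and 39% lower). With scaling by library size alone, the split of all genes into higher and lower changed to 31.9% and 20.9% for A-iSCs over ASTs, 55.9% and 19.2% for A-iSCs over P56-NPCs, 31.2% and 51.5% for P56-NPCs over ASTs, 46.3% and 31.6% for P0-NPCs over ASTs, and 22.3% and 61.2% for P56-NPCs over P0-NPCs. For A-iSCs over P0-NPCs the split was 28.6% and 36.1%. Of the 8 genes, 7 in place of 5 were then called for P0-NPCs over ASTs, with Nefm and Nefh added. For A-iSCs over P0-NPCs 7 in place of 6 were called, and for P56-NPCs over P0-NPCs 8 in place of 7. Without the filter on low genes, 6 were called for P0-NPCs over ASTs and 7 for A-iSCs over P0-NPCs, Nefh being the added gene. Of all genes, 47.4% and 35.9% were then called. The comparisons share samples and are not independent of each other.

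**Figure D2:**
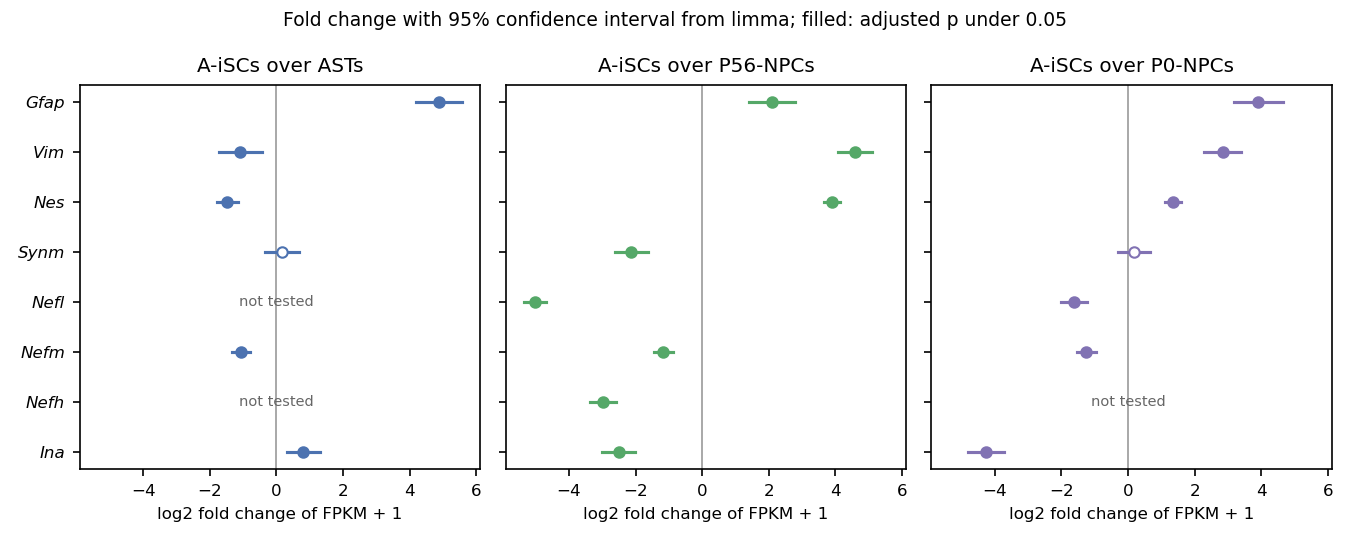
Log2 fold change of FPKM + 1 of A-iSCs over ASTs, P56-NPCs and P0-NPCs (x axis) for each of the 8 genes (y axis), with 95% confidence intervals from limma and filled points where the adjusted p was under 0.05. Gfap is to the right of 0 in all 3 panels, Vim and Nes are left of 0 against ASTs and right of it against both NPC groups, and Nefm is left of 0 in all 3.

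The filament pool as a whole differed in size and make-up between the cultured and the brain-derived cells. The summed level of the 8 genes was 2418 ± 452 FPKM (SD, n = 3) in ASTs, 2083 ± 182 in A-iSCs, 329.7 ± 11.6 in P56-NPCs and 289.5 ± 28.5 in P0-NPCs. Vim made up 90.1% ± 2.20 of it in ASTs, 50.8% ± 16.2 in A-iSCs, 48.9% ± 6.18 in P0-NPCs and 12.5% ± 1.20 in P56-NPCs. The share of Gfap was 1.27% ± 0.301 in ASTs, 45.6% ± 16.7 in A-iSCs, 21.2% ± 6.15 in P0-NPCs and 64.1% ± 2.40 in P56-NPCs. The A-iSCs samples were not alike in this respect, since Gfap took 33.3% and 38.9% of the pool in replicates 1 and 2 and 64.7% in replicate 3. Without replicate 3 the mean shares in A-iSCs were 36.1% for Gfap and 60.0% for Vim. The 4 neuronal genes together took 0.173% ± 0.0292 in ASTs and 0.135% ± 0.0473 in A-iSCs, but 18.2% ± 3.56 in P56-NPCs and 19.9% ± 2.07 in P0-NPCs. Behind these like totals stood different genes. Nefl was 10.6% ± 2.21 of the pool in P56-NPCs and 0.839% ± 0.295 in P0-NPCs, and Ina was 4.31% ± 0.520 and 17.5% ± 2.14.

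**Figure D3:**
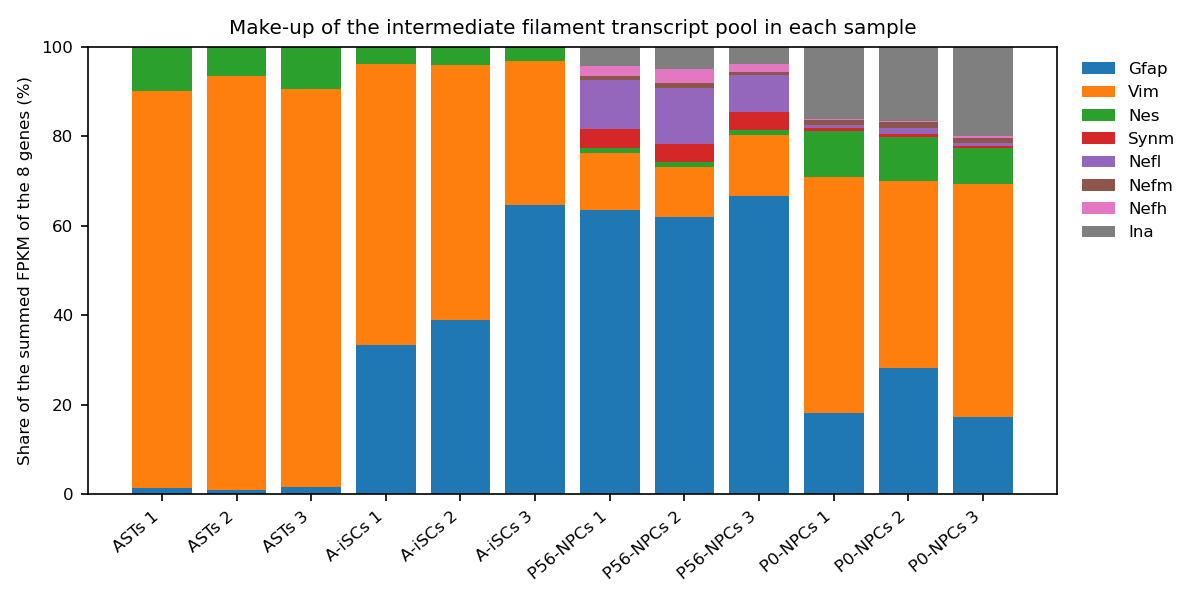
Share (%) of each gene in the summed FPKM of the 8 genes, stacked from 0 to 100, 1 bar per sample. Vim fills at least 88.6% of each ASTs bar, Gfap and Vim together nearly fill the A-iSCs bars, and the neuronal genes are visible in the NPC bars, led by Nefl in P56-NPCs and by Ina in P0-NPCs.

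Ratios of 2 genes within a sample do not depend on the scaling between samples. The geometric mean ratio of Gfap to Vim was 0.0138 in ASTs, 0.897 in A-iSCs (0.530 to 2.002), 0.424 in P0-NPCs and 5.12 in P56-NPCs. Only A-iSCs and P0-NPCs overlapped. Without replicate 3, the ratio in A-iSCs was 0.60, and without replicate 2, that in ASTs was 0.0163. The ratio of Nes to Vim was 0.0907 in ASTs and 0.0912 in P56-NPCs, and the ASTs value rests on replicate 2 (0.0670). Without that sample it was 0.106, and ASTs replicates 1 and 3, at 0.109 and 0.102, lay above every P56-NPCs and A-iSCs sample. It was 0.0690 in A-iSCs, overlapping both groups when all samples are kept, and 0.191 in P0-NPCs, above every other sample. Nefm exceeded Nefl 4.63-fold in ASTs and 1.47-fold in P0-NPCs, while in P56-NPCs the ratio of Nefm to Nefl was 0.0917. The ratio of Ina to Nefl was 0.809 in ASTs, 21.6 in P0-NPCs and 0.410 in P56-NPCs, and that of Nefh to Nefl was 0.411 in P0-NPCs and 0.219 in P56-NPCs. With 3 samples against 3, an exact two-sided permutation test cannot give a p under 0.1. The ratios of groups that did not overlap reached that p of 0.1 (0.127 after Benjamini-Hochberg adjustment over 19 comparisons), so none passed 0.05. For Nes to Vim, P56-NPCs against ASTs gave an exact permutation p of 1, and without ASTs replicate 2 the p was 0.2, the smallest that 3 against 2 samples allow.

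Markers of other cells moved along with these genes, and their part in the results was not tested. Each of the 8 astrocyte markers had a mean of at least 1 FPKM in ASTs. Their summed level was 132 to 149 FPKM in ASTs, 591 to 1041 in A-iSCs, 204 to 242 in P0-NPCs and 2662 to 2915 in P56-NPCs, and 7 of the 8 rose from ASTs to A-iSCs, where 25.2% of all genes rose. For P0-NPCs over ASTs the astrocyte markers were split, with 3 higher (Aldoc, Slc1a2 and Slc1a3), 4 lower (Aqp4, Gja1, S100b and Aldh1l1) and Sox9 not called, beside 38.1% of all genes higher and 40.9% lower. Aldoc, at 90.1 FPKM in P0-NPCs and 13.0 in ASTs, made up most of the rise in that sum. All 6 microglia markers rose from ASTs to A-iSCs as well, at 1084 to 1495 against 96.5 to 127 FPKM, led by C1qa. Markers of mural and fibroblast-like cells, led by Acta2, summed to 1890 to 2285 FPKM in ASTs and 33.2 to 66.6 in A-iSCs, and those of cycling cells to 102 to 109 and 16.5 to 18.7 FPKM. In P0-NPCs these last 2 lists summed to 135 to 136 and 36.9 to 47.8 FPKM. The members of the mural and fibroblast-like list differed in direction between A-iSCs and P0-NPCs. Acta2 was higher in A-iSCs, at 41.6 against 3.04 FPKM (log2 fold change 3.37), as Vim and Nes were, whereas the other 6 tested were lower, among them Rgs5 (-4.55) and Col1a1 (-3.15), beside 31.5% of all genes higher and 33.6% lower. All 5 markers of cycling cells were lower in A-iSCs than in P0-NPCs. P56-NPCs held 10825 to 12337 FPKM of 6 oligodendrocyte markers, led by Mbp, against 17.6 to 19.4 in ASTs, where Mog and Mobp were at or under 3 fragments a sample. Ependymal markers were also highest in P56-NPCs, at 262 to 356 FPKM. Endothelial markers summed to 71.9 to 74.2 FPKM in P0-NPCs and at most 3.59 in the other groups. The 6 neural precursor markers, led by Sox2, summed to 230 to 281 FPKM in A-iSCs, 140 to 176 in ASTs, 121 to 157 in P56-NPCs and 118 to 121 in P0-NPCs. These sums were mostly Sox2, at 208 FPKM in A-iSCs and 135 in ASTs. For A-iSCs over ASTs, 3 of the 6 were higher, Sox2 and Hes5 among them, beside 25.2% of all genes higher and 29.6% lower. Egfr was lower (-0.75), and Pax6 and Prom1 were not called. Hes5 did not follow the order of the sums, with 19.8 FPKM in P56-NPCs and 15.9 in P0-NPCs against 7.88 in A-iSCs.

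Neuron markers bear on the neuronal filament genes most directly. The 9 markers summed to 130 ± 22.8 FPKM (SD, n = 3) in ASTs, led by Stmn2, 94.4 ± 9.02 in A-iSCs, 377 ± 35.4 in P56-NPCs and 1122 ± 133 in P0-NPCs. In ASTs, 5 of the 9 reached a mean of 1 FPKM, and Rbfox3, Dcx, Snap25 and Syt1 were at 0.0268, 0.0833, 0.0912 and 0.361 FPKM. Of the 6 tested between A-iSCs and ASTs, Stmn2 was lower (-2.75, from 53.8 to 7.16 FPKM), Dcx (1.83) and Gap43 (0.37) were higher, and Tubb3, Map2 and Eno2 were not called, beside 25.2% of all genes higher and 29.6% lower. The lower sum in A-iSCs was that of Stmn2. The sum in P0-NPCs was carried by Tubb3, a tubulin of young neurons, at 634 FPKM against 76.8 in P56-NPCs. The 9 markers did not move together between these groups, since in P56-NPCs over P0-NPCs 3 were higher (Map2, Snap25 and Eno2), 5 were lower (Tubb3, Dcx, Stmn2, Rbfox3 and Gap43) and Syt1 was not called, beside 39.7% of all genes higher and 39% lower. Log2 fold changes ran from -4.36 for Dcx to 2.21 for Eno2. The 4 neuronal filament genes summed to 4.09 ± 0.0315, 2.77 ± 0.805, 59.9 ± 9.75 and 57.9 ± 11.8 FPKM in the same order. Relative to the neuron markers they stood at 3.20%, 2.90%, 15.8% and 5.13%. These percentages depend on which markers are summed. Nefl alone equalled 9.19% ± 0.801 of the neuron markers in P56-NPCs and 0.217% ± 0.0775 in P0-NPCs, whereas Ina equalled 3.76% ± 0.0768 and 4.52% ± 0.460.

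**Figure D4:**
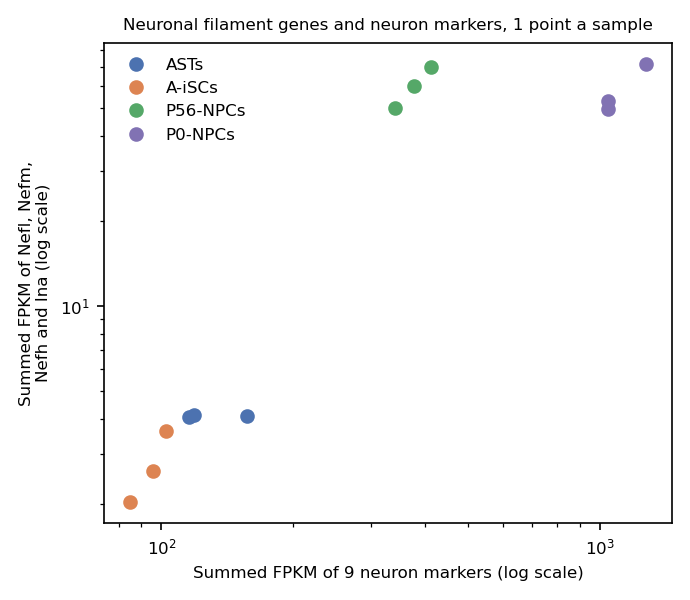
Summed FPKM of Nefl, Nefm, Nefh and Ina (y axis, log scale) against the summed FPKM of 9 neuron markers (x axis, log scale), 1 point per sample, coloured by group. P56-NPCs and P0-NPCs lie at the same height but apart along the x axis, and ASTs and A-iSCs lie low on both axes.

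Of 12 further genes of the intermediate filament family (desmin, peripherin, syncoilin, keratins, lens filaments and lamins), 6 could be tested between A-iSCs and ASTs, where 0 were higher and 4 lower, beside 29.6% of all genes lower. These were Krt19, a simple epithelial keratin, with a log2 fold change of -2.77, Lmna, which encodes the A-type nuclear lamins, with -2.15, Sync with -2.05 and Lmnb1 with -1.08. Lmna fell from 106 FPKM in ASTs to 23.7 in A-iSCs and was 5.56 in P56-NPCs and 5.47 in P0-NPCs. For P56-NPCs over ASTs, 10 of the 12 were tested, of which 4 were higher (Krt8, Krt18, Bfsp2 and Bfsp1) and 4 lower, namely Lmna (-4.01), Sync (-2.98), Lmnb1 (-1.54) and Lmnb2 (-0.44), beside 39.1% of all genes higher and 39.8% lower. The 4 higher genes had means under 1 FPKM in ASTs and passed the filter only through P56-NPCs, so the direction of their calls was fixed. Sync passed only through ASTs, as Krt19 did in the comparison with A-iSCs. Krt8 and Krt18, partners in simple epithelia, were higher in P56-NPCs than in ASTs by 3.20 and 3.06. The P56-NPCs samples spread widely for Krt8, from 3.34 to 25.7 FPKM, and without the highest, replicate 3, the difference was 2.45 and was still called. Krt8 was at or under 3 fragments a sample in ASTs and in A-iSCs.

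A second list held 12 genes for linkers, chaperones and turnover of intermediate filaments. Of the 10 tested between A-iSCs and ASTs, 7 were lower and 1, the linker Dst, was higher (0.67, adjusted p = 0.0185, limma), beside 29.6% of all genes lower and 25.2% higher. Cryab, the small heat shock protein that binds GFAP and desmin filaments, fell by 2.46 on the log2 scale (SE 0.43, adjusted p = 0.00240, limma), from 821 to 163 FPKM, and Ppl, encoding periplakin, fell by 1.02. Against P0-NPCs, A-iSCs had 5 of 9 higher and 3 lower, with Hspb1 and Cryab each 3.64 higher and the chaperone Dnajb6 lower (-0.89), beside 31.5% of all genes higher and 33.6% lower. Against P56-NPCs, 5 of 10 were higher, led by Hspb1 (2.35) and Bag3 (2.26), and 2 were lower, Evpl (-0.96) and Trim32 (-0.41), beside 30.1% of all genes higher and 30.9% lower.

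For each of the 8 genes, the genes closest in pattern over the 12 samples were sought among 16568 genes by the root mean square difference of centred log2(FPKM + 1). Gfap was most like Ednrb, with a difference of 0.43, then Apoc1 and C1ql1 at 0.53 each. Vim was nearest to Ecm1 (0.26) and Emp3 (0.33), and Nes to Atoh8 (0.34) and Cyp1b1 (0.35), with Atoh8 also the third gene for Vim (0.42) and Id1 the third for Nes (0.39). Synm had close neighbours in Myh14 (0.13), St6galnac6 (0.14) and Eps15 (0.15). Nefl was nearest to Itpka (0.26), Hcn2 (0.29) and Rasgef1a (0.30), and Nefh to Folh1 (0.15), Unc80 (0.19) and Hrh3 (0.19). Nefm was nearest to an unannotated locus on chromosome X from 64496933 to 64498836 (0.11), then Ncam1 (0.16) and Wnt4 (0.17). Ina was nearest to Sept3 (0.32), Mgat5b (0.32) and Mpped1 (0.35). The 12 samples fall into 4 groups, so these likenesses describe group levels.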

How the data were processed

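RNA from 12 samples (3 per group) was sequenced as paired-end reads from NEBNext Ultra libraries. The authors deposited 1 table of FPKM for 55862 genes with gene lengths. The submitters' notes name Bowtie 0.12.2 and mm8, although positions were those of GRCm38, since 54899 of the 55154 genes also found in GENCODE M21 coincided with it. The annotation and the counter are not given in the sources used here. The authors' FPKM, multiplied by gene length, were whole multiples of 1 step per sample (100% within 0.1 fragment), and the fragments were recovered from these steps. Counting without strand could mix genes that overlap on opposite strands.

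Groups were taken from the labels and compared in 6 pairs with limma 3.58.1 in R 4.3.3 (lmFit, eBayes with a trend) on log2(FPKM + 1), over genes with a mean of at least 1 FPKM in either group, at a Benjamini-Hochberg adjusted p under 0.05 over all genes tested. DESeq2, the tool of the study's methods, was not run here. The script was tested on simulated data with known changes. Ratios were compared by exact permutation tests with scipy 1.17.1 in Python 3.11.15. The alternatives were upper-quartile and library size scaling, no filter, all 4 groups in the model, a replicate block, stricter calls (log2 fold change beyond 1, or adjusted p under 0.01), 0.1 as the pseudocount, each sample left out in turn, 6 further genes in the pool and limma-voom on the recovered fragments. Leaving out Nefl and Nefm, and leaving out single samples for Krt8, were chosen after seeing the data. The named genes were the 8 members, up to 2 called genes at each end of each list, the leading or near-absent markers and the 3 genes nearest in pattern to each member, and further list members were named after their values were seen. The members and lists were chosen with earlier results of these data known. Some genes of the lists are not reported here.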

Additional observations from a re-analysis of the deposited data

How the results depend on the processing

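Of the 44 log2 fold changes of the 8 genes, all kept their sign and their side of the threshold with a pseudocount of 0.1, with all 4 groups in the model and with limma-voom on the recovered fragments. With an adjusted p under 0.01, 3 genes in place of 5 were called for A-iSCs over ASTs, since Vim and Ina were lost. Of all genes, 37.9% in place of 54.8% were then called. A log2 fold change beyond 1 lost Ina in A-iSCs over ASTs and Gfap in P0-NPCs over ASTs. With Nefl and Nefm left out, which was chosen after seeing the data, 4 genes were called for A-iSCs over ASTs and 6 for A-iSCs over P56-NPCs. In these comparisons 54.8% and 61% of all genes tested were called. Several differences that were not called changed sign. Nefm of P56-NPCs over ASTs became -0.011 with upper-quartile and -0.15 with library size scaling, and Synm of P0-NPCs over ASTs became 0.19 with library size scaling. With samples left out, Synm ranged from -0.062 to 0.35 (A-iSCs over ASTs), from -0.091 to 0.039 (P0-NPCs over ASTs) and from -0.055 to 0.35 (A-iSCs over P0-NPCs), and Nefm of P56-NPCs over P0-NPCs from -0.18 to 0.020. The log2 ratio of Nes to Vim, P56-NPCs minus ASTs, ranged from -0.21 to 0.14. With 6 further genes in the pool, 3 of the 32 shares moved by more than 1 SD, all in P56-NPCs, where Gfap was 59.6%, Nes 1.06% and Synm 3.75%. Library size scaling shifted the median of all genes, most for P56-NPCs over P0-NPCs (-0.53, against 0.01).

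Samples with the same replicate number had residual correlations of -0.41, 0.35 and 0.45 between A-iSCs and ASTs, and of -0.14 to 0.10 elsewhere. With 3 samples a group, these values cannot decide whether samples of equal number share a culture, and the labels do not say. With the replicate block, 5 of the 8 genes were called for A-iSCs over ASTs and 8 for A-iSCs over P56-NPCs, as without it. Of all genes, 56.4% and 56.1% were called with the block. It changed no other call of the 8 genes. The depth limits Nefl and Nefh in ASTs and A-iSCs, which rest on 1 to 46 fragments a sample.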
